A study of Mus musculus with 4 samples.

Results

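The transcripts described here come from 10 genes for small proteins of the S100 family, sugar-binding proteins and proteins that attach to actin or membranes: S100a4, S100a6, S100a10, S100a11, Lgals1, Lgals3, Anxa2, Capg, Crip1 and Vim. They are 10 of the 27998 genes measured in 8273 single regulatory T (Treg) cells of the mouse thymus, and were put together by name. Earlier clustering of the same cells had S100a6 and Lgals3 among the leading genes of an effector-like state, so the members were chosen by values measured in these data, and what follows is a description with no p-value. The study asked what IL-2 and IL-15 contribute to how many Treg cells form in the thymus, which ones are selected and how they mature. It has 4 samples: an Il2 knockout (IL2 o/o), an Il15 knockout (IL15 o/o), an Il2 wild type (IL2 wt/wt) and an Il15 wild type (IL15 wt/wt). All 4 came from 3-week-old B6 mice that carried Rag2-Gfp, which marks recently formed T cells, and Foxp3-Thy1a, a Thy1.1 reporter of the Treg transcription factor Foxp3. The sort took CD4+CD8-Thy1.1+GFP+ cells, which were captured with a droplet kit that counts unique molecular identifiers (UMIs) at the 3' end of each transcript, and the labels do not say how many animals made up a sample.

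Most S100 proteins bind calcium and then dock onto partner proteins, many of them at the cell cortex. S100a10 binds annexin A2, the product of Anxa2, in a complex that links membranes to the actin skeleton. Galectins bind sugars on cell surface proteins and can crosslink receptors. Capg caps the growing ends of actin filaments, Crip1 encodes a small LIM-domain protein and Vim encodes vimentin, the intermediate filament protein of leukocytes. In conventional T cells many of these genes are known to be low in naive cells and higher in activated and memory cells that move into tissues.

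The cell barcodes carry 1 of 4 suffixes, taken here as libraries 1 to 4, with 1609, 2452, 2037 and 2175 cells and a median of 3857, 3640, 2501 and 3019 UMIs per cell. No label ties a suffix to a sample, so which library came from which genotype is open in the labels, and knockout and wild type were not set against each other. In all, 27 barcode sequences occurred in more than 1 library, in 54 cells. Library 3 stood apart from the other three before any of the 10 genes was considered: Il2ra, the IL-2 receptor alpha chain, had a UMI in 6.82% of its cells and in 32.2% to 39.4% of cells in the others, and its summed erythroid markers were at 1879 counts per 1000000 UMIs (CPM) against 0 to 6.21 CPM. A UMI of Foxp3 itself was found in 5.06% of all cells, while 7 Treg markers summed to between 2619 and 3795 CPM in every library. Shares of cells are given as deposited and again after thinning, in which 1811 UMIs were drawn from each of the 7447 cells that had as many. Intervals are 95% and cover counting error only.

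The 4 S100 genes lie in the S100 cluster of chromosome 3 (GRCm38, + strand). S100a4 (90603771 to 90606045) and S100a6 (90612882 to 90624181) lie 6836 bases apart, and S100a11 (93520488 to 93526287) and S100a10 (93555080 to 93564643) lie 28792 bases apart. The other 6 genes are on chromosomes 15 (Lgals1, 78926725 to 78930465), 14 (Lgals3, 47367751 to 47386160), 9 (Anxa2, 69453620 to 69491795), 6 (Capg, 72544391 to 72562983), 12 (Crip1, 113146316 to 113153879) and 2 (Vim, 13573927 to 13582826). RefSeq promoters of build GRCm38.p6, from 250 bases before to 50 after the start of transcription, matched 8 of the 10 symbols. Both strands were searched for an AP-1 site (TGANTCA), a STAT-binding GAS site (TTCNNNGAA), a CACCC box of the kind Krueppel-like factors bind (CACCC) and a TATA box (TATAAA). The 4 promoters printed are those of S100a4 and S100a6, the pair with the highest odds ratio of being found in the same cell, and those of Anxa2 and S100a11, which hold AP-1 matches. Capitals mark the matched letters.

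S100a4 (chr3:90603520-90603819, + strand): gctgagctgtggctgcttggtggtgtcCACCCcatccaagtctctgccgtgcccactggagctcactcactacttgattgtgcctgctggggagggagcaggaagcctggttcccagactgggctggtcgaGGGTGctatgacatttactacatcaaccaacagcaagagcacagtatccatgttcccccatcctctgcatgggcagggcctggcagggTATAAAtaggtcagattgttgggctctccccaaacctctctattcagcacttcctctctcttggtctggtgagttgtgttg

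S100a6 (chr3:90612644-90612943, + strand): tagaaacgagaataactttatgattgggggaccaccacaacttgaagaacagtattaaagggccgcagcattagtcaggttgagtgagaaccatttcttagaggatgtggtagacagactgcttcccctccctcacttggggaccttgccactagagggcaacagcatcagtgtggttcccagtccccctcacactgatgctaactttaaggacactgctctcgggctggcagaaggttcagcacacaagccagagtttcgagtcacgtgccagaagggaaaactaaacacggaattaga

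Anxa2 (chr9:69453433-69453732, + strand): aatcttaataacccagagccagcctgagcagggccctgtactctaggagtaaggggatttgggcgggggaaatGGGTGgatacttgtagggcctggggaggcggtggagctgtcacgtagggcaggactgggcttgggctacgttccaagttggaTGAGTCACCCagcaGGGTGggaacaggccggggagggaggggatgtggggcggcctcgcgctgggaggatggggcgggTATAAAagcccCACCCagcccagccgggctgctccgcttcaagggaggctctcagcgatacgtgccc

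S100a11 (chr3:93520246-93520545, + strand): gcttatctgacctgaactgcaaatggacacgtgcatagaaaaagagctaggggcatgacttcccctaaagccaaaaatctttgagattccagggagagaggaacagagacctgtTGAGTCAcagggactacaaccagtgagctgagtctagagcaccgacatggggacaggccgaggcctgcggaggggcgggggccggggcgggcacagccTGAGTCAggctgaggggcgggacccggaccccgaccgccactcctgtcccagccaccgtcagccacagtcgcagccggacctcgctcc

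An AP-1 match was found in 2 of the 8 promoters, with 1 match in Anxa2 at base -95 from the start and 2 in S100a11, at -136 and -38, against 7.81% of all 32851 promoters. The Anxa2 match overlaps a CACCC box. None of the 8 held a GAS match, against 8.30% of all promoters. CACCC boxes were in 6 of the 8 (Anxa2, Capg, Crip1, Lgals3, S100a4 and Vim), against 57.5% of all promoters, and TATA boxes in 3 (Anxa2, S100a4 and Vim), against 13.6%. S100a6 held none of the 4 motifs in this window. These matches describe letters and are not measured binding sites.

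The 10 genes spanned more than 2 orders of magnitude in level, from Crip1 at 981 CPM to S100a4 at 2.44 CPM over all cells. UMIs count transcript ends, so these levels were not divided by gene length. A UMI was found in a large share of cells for 5 genes: Crip1 in 65.5%, Vim in 62.6%, S100a10 in 62.4%, Lgals1 in 48.5% and Capg in 38.4%. Anxa2 was found in 18.6% and S100a11 in 10.7%. The 3 rarest genes, S100a6 (1.63%), Lgals3 (1.18%) and S100a4 (0.411%), were concentrated in few cells, in which they were not faint: the 135 cells with S100a6 held 2.56 UMIs of it on average and 50 at most, and the 34 cells with S100a4 held 2.38 on average and 12 at most. Cells of a kind known to lack these genes were not part of the sort, so the share that free RNA in the droplets gives was not measured. S100a4 had 81 UMIs in all, under the minimum of 200 set for a call, and the other 9 genes passed it.

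Among the S100 genes, S100a10 was the broadly detected one, at 401, 433, 237 and 449 CPM in libraries 1 to 4. Its thinned share of cells was 45.5%, 48.9%, 33.5% and 49.5%, and its unthinned share 67.7%, 70.4%, 44.2% and 66.3%. Libraries 1, 2 and 4 lay within 1.12-fold of each other in CPM and library 3 lay below them. S100a11, a dimer-forming relative that also binds annexins, was at 42.5, 35.3, 26.6 and 39.9 CPM. Its library 3 interval (22.5 to 31.2 CPM) did not reach that of any other library, and its thinned shares were 5.78%, 5.09%, 3.82% and 6.15%. S100a6, known as calcyclin, was at 13.1, 13.6, 3.498 and 8.26 CPM, with 33, 53, 11 and 38 positive cells. S100a4, a protein linked to cell motility that binds non-muscle myosin, was at 2.91, 2.57, 1.57 and 2.40 CPM, from 6, 15, 2 and 11 positive cells. For S100a4 the intervals of all 4 libraries overlapped (0.720 to 2.99 CPM in library 3, 1.85 to 4.37 CPM in library 1), so no difference was detectable at this depth.

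The 2 galectins stood at 548 CPM (Lgals1) and 6.65 CPM (Lgals3) over all cells and shared their lowest library. Lgals1, the galectin best known for dampening T cell responses, was at 571, 769, 122 and 521 CPM in libraries 1 to 4. Its thinned shares were 40.4%, 50.5%, 16.1% and 40.2%, and its unthinned shares 55.2%, 65.1%, 20.2% and 51.2%. No interval of Lgals1 in one library reached another. Lgals3, a galectin that forms lattices on glycoproteins, was at 7.48, 9.93, 0.525 and 5.63 CPM, from 22, 44, 2 and 30 positive cells. Library 3 held 3 Lgals3 UMIs, and the ratio of library 2 to library 3 was 18.9 with an interval of 6.31 to 93.2.

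The annexin, actin-binding, LIM and vimentin genes had the same order of libraries at its ends, with library 2 highest and library 3 lowest. Anxa2 was at 92.9, 132, 21.5 and 98.8 CPM, with thinned shares of 10.9%, 15.02%, 2.77% and 10.6%. Capg was at 216, 262, 76.8 and 201 CPM, with thinned shares of 25.2%, 32.2%, 13.7% and 24.3%. In both genes library 2 lay clear of libraries 1 and 4, whose intervals overlapped each other. Crip1 was at 981, 1314, 352 and 963 CPM, with thinned shares of 60.0%, 69.8%, 30.2% and 57.8%. Vim was at 611, 729, 266 and 523 CPM, with thinned shares of 54.3%, 61.6%, 33.8% and 50.5%. Crip1 also gave the single highest count of any of the 10 genes in a cell, 100 UMIs, in library 3, the library where its level was lowest.

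**Figure D1:**
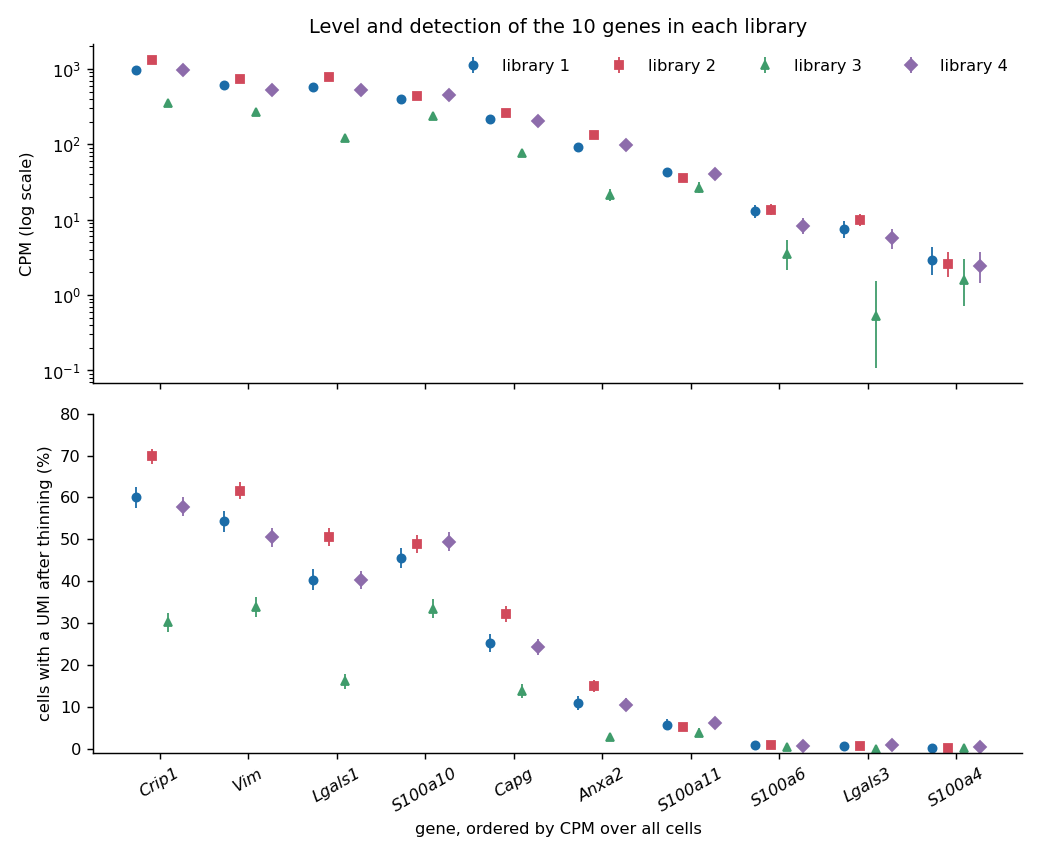
Level in CPM on a log axis (top) and share of thinned cells with a UMI in percent (bottom) of each gene in libraries 1 to 4; points are values over all cells of a library and bars are 95% counting intervals. The library 3 point is the lowest of the 4 in CPM for each of the 10 genes, with Lgals1 at 122 CPM and the other libraries between 521 and 769 CPM.

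All 10 genes had their lowest CPM in library 3, and 7 had their highest in library 2, while S100a4 and S100a11 were highest in library 1 and S100a10 in library 4. These directions are given with no share of all tested genes beside them, here and in the subsets of cells that follow. A gene was called different between libraries when it had 200 UMIs, its highest library was at least 1.5-fold above its lowest and their intervals did not overlap. By that rule 9 of the 10 were called, against 24.7% of the 8071 genes tested. The highest library was 6.30-fold above the lowest for Lgals1, 6.14-fold for Anxa2, 3.88-fold for S100a6, 3.73-fold for Crip1, 3.42-fold for Capg, 2.74-fold for Vim, 1.90-fold for S100a10 and 1.60-fold for S100a11. The median over all genes tested was 1.32-fold. Summed over the 10 genes, the level was 2939, 3701, 1107 and 2812 CPM in libraries 1 to 4. These calls rest on library 3: without it, 2 of the 10 genes were called (S100a6 and Lgals3, 1.64-fold and 1.76-fold), against 3.39% of genes, and the ratio was between 1.12 for S100a10 and 1.48 for Lgals1 among the other 8. The highest S100a6 count in a single cell was 50 of 153 UMIs in library 2 and 38 of 103 in library 1. For Lgals3 it was 20 of 112 UMIs in library 2. The intervals take each UMI as independent, and the part of single cells in these calls and in the splits of cells below was not tested.

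Library 3 also had few Il2ra-positive cells, and the difference was looked for among cells with no Il2ra UMI. In those cells 7 of the 10 genes were called, against 18.7% of genes, and 9 of the 10 were again lowest in library 3. Lgals1 was at 492, 653, 119 and 456 CPM in the Il2ra-undetected cells of libraries 1 to 4, Crip1 at 888, 1220, 313 and 857 CPM, and Anxa2 at 84.3, 114, 21.3 and 84.2 CPM. In the Il2ra-undetected cells the highest library was 5.51-fold above library 3 for Lgals1, 3.90-fold for Crip1 and 5.35-fold for Anxa2. Keeping Il2ra-undetected cells that are also in the authors' table of G1 cells gave 7 calls too, against 15% of genes. Without cells of other types (a UMI of Cd8a, Rag1 or Dntt, or at least 5 haemoglobin UMIs), 9 genes were called and all 10 were lowest in library 3. The share of all genes called was not computed for that set of cells, so its count has nothing to stand against. With 1 library per group, genotype, animal and capture cannot be told apart in this difference.

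Cells were next divided by detection of Il2ra, which is itself a target of IL-2 signalling and is high on Treg cells. At least 1 Il2ra UMI was found in 2437 cells (median 4411 UMIs per cell) and none in 5836 cells (median 2783 UMIs), so the Il2ra-detected cells were deeper. Detection of Il2ra, and of the splitting genes further below, was taken on unthinned counts, also where thinned cells are compared. The thinned groups were thus still chosen at unlike depth. For each gene the ratio of CPM was stratified by library. A call needed 200 UMIs, a difference of 1.5-fold or more whose interval held no value of no change, and the same direction in each library that had 20 or more cells on both sides. None of the 10 genes was called higher, against 3.98% of the 8071 genes tested, and none lower, against 3.09%. The members were chosen on these same cells, so the ratios are given in each library and with no test, and a count of 0 from this rule does not show that levels were alike. The ratio was above 1 for 8 of the 10 genes, with a median log2 ratio of 0.31 against -0.033 for all genes tested.

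Lgals1 was the most even of these 8 across libraries. It stood at 652, 886, 155 and 612 CPM in the Il2ra-detected cells of libraries 1 to 4, against 492, 653, 119 and 456 CPM in the Il2ra-undetected cells. Its log2 ratio was between 0.39 and 0.44 in every library and 0.43 over all (0.38 to 0.47), and it was found in 49.8% of thinned Il2ra-detected cells against 32.8% of Il2ra-undetected ones (unthinned 67.8% and 40.4%). Capg stood at 246, 307, 75.0 and 249 CPM in Il2ra-detected cells, against 188, 218, 77.0 and 166 CPM in Il2ra-undetected cells. It was higher with Il2ra in libraries 1, 2 and 4 and not in library 3, with a log2 ratio over all of 0.47 (0.40 to 0.55). Capg was called higher, by the same rule, when cells were thinned (log2 ratio 0.60). It was also called when each cell was counted alike (0.63) and with the authors' normalized values (0.65), where the rule had no interval.

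Anxa2 (123 CPM in Il2ra-detected cells against 76.3 CPM in Il2ra-undetected cells, log2 ratio 0.40) and Crip1 (1209 against 825 CPM, 0.30) were above 1 in all 4 libraries. Vim (686 against 490 CPM, 0.28) and S100a10 (442 against 364 CPM, 0.14) were below 1 in library 3 and above it in the other three. S100a6 had a log2 ratio of 0.47 that rests on library 2, where it stood at 19.9 CPM in Il2ra-detected cells against 7.39 CPM in Il2ra-undetected cells. Without library 2 its log2 ratio was -0.28, and that of S100a4, 0.32 with all libraries, was -0.33. S100a11 had a log2 ratio of -0.12 (-0.29 to 0.05). Lgals3 went the other way from the rest, at 3.85, 4.29, 0 and 6.61 CPM in the Il2ra-detected cells of libraries 1 to 4, against 11.01, 15.5, 0.580 and 4.93 CPM in the Il2ra-undetected cells. Its log2 ratio was -1.19 (-1.61 to -0.77), it was not called because library 4 had the opposite sign, and it came from 62 UMIs in Il2ra-detected cells against 159 in Il2ra-undetected cells. Its share of thinned cells did not differ in that direction (0.633% of Il2ra-detected cells against 0.591% of Il2ra-undetected cells), so no order is read from it.

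Depth moved with these ratios. When cells were compared within strata of library and of UMIs per cell, the log2 ratio of Il2ra-detected to Il2ra-undetected cells was 0.31 for Capg and 0.16 for Vim. It was 0.072 for Crip1, 0.058 for Lgals1, 0.026 for Anxa2, 0.022 for S100a10 and 0.018 for S100a6. With every cell thinned to the same number of UMIs but Il2ra detection taken before thinning, it was 0.60 for Capg, 0.38 for Vim, 0.42 for Crip1, 0.50 for Lgals1, 0.36 for Anxa2, 0.24 for S100a10 and 1.49 for S100a6. For Lgals3 it was -1.68 within strata and -0.29 with thinned cells. The part of depth in these ratios was not tested further.

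The second deposited table is named by its authors as holding G1 cells. It contains 7231 of the 8273 cells, and the other 1042 cells were set against them. None of the 10 genes was called higher in the G1-table cells (3.48% of genes tested were) and 3 were called lower, against 7.36% of genes. Lgals1 was at 503.5, 690.5, 113 and 448 CPM in the G1-table cells of libraries 1 to 4, against 846, 1099, 215 and 932 CPM in the other cells. Anxa2 was at 80.3, 116, 18.1 and 78.9 CPM in G1-table cells, against 144, 200.3, 56.1 and 210.2 CPM in the other cells. Crip1 was at 860, 1188, 329 and 855 CPM in G1-table cells, against 1474, 1847, 583 and 1570 CPM in the other cells. In each of these 3 genes the G1-table cells were lower in every library, with log2 ratios of -0.78 (-0.83 to -0.74) for Lgals1, -0.98 (-1.09 to -0.87) for Anxa2 and -0.73 (-0.77 to -0.70) for Crip1. The call of Lgals1 ended within strata of library and depth (-0.55), and that of Crip1 ended when each cell was counted alike (-0.56).

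The other 7 genes were not called. Vim (537 CPM in G1-table cells against 735 CPM in the other cells, log2 ratio -0.35), Capg (195 against 250.4 CPM, -0.25) and S100a10 (382 against 463 CPM, -0.22) were lower in libraries 1, 2 and 4 and higher in library 3. S100a11 (log2 ratio 0.25), S100a6 (0.43) and S100a4 (0.92) had ratios above 1. The intervals of S100a6 and S100a4 held no change, and S100a11 was called higher without library 2 (0.60). Lgals3 had a log2 ratio of -0.90, with 65 UMIs in the other cells, and was called lower without library 3.

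Cells with a UMI of the proliferation genes Mki67 or Top2a made up 5.67% of the G1-table cells and 39.5% of the other cells. In the 822 such cells Lgals1 was at 980 CPM against 432 CPM in all remaining cells, Anxa2 at 180 against 72.6 CPM and Crip1 at 1667 against 797 CPM. When these cells were left out of both sides, no member was called lower (4.66% of genes were) or higher (2.77%), and the log2 ratio was above 0 for Lgals1 (0.13), Anxa2 (0.29) and Crip1 (0.11), and for Vim (0.40), S100a10 (0.27) and Capg (0.11) as well. The log2 ratio of Lgals3 was still below 0 (-0.69) without them.

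**Figure D2:**
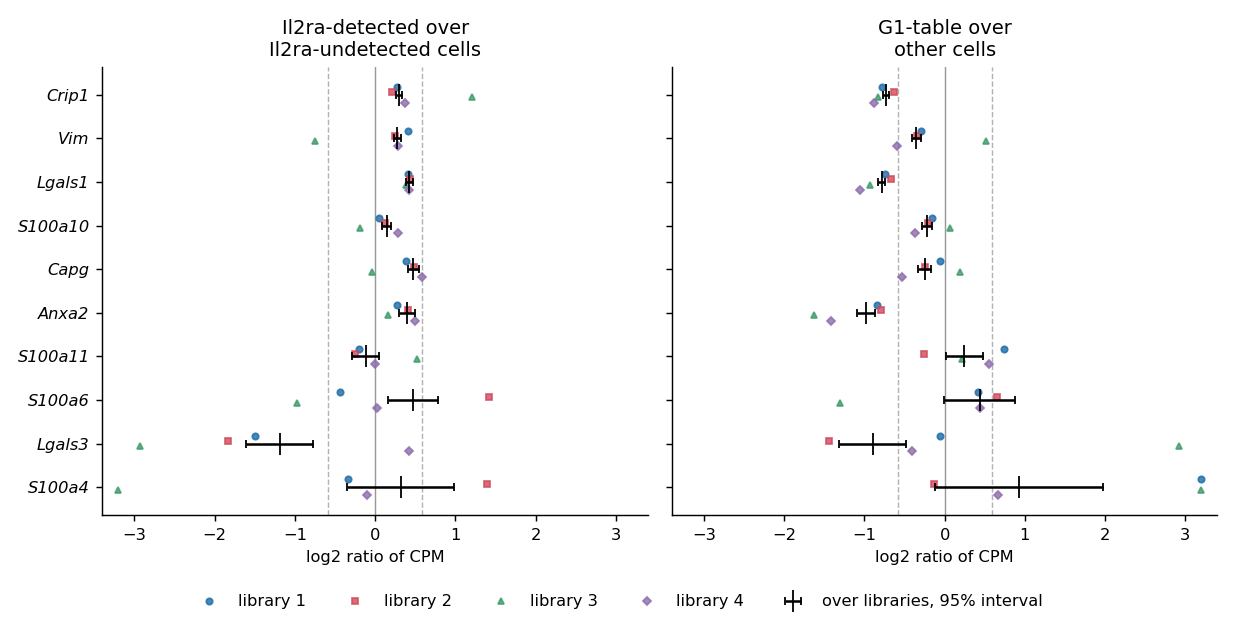
Log2 ratio of CPM of each gene in Il2ra-detected over Il2ra-undetected cells (left) and in G1-table over other cells (right); coloured points are single libraries, black bars the ratio over all libraries with its 95% counting interval, and dashed lines 1.5-fold either way. Crip1, Lgals1 and Anxa2 lie left of 0 in all 4 libraries in the right panel, while rare genes such as S100a4 and Lgals3 scatter, and points of libraries with no UMI on one side are placed by the 0.5 UMIs added and drawn at the edge of the axis where they lie beyond it.

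The genes were found together in the same cells more often than their separate shares would give. Over the 45 pairs, the odds ratio of detecting both genes in a thinned cell, stratified by library, was above 1 in all 45 and at least 1.5 in 37, with a median of 2.30. It was above 1 in every one of the 4 libraries for 21 pairs. Pairs with no odds ratio in a library, such as S100a4 and S100a6 in library 1, were not among these 21, whatever their other values. The median of the pairs with a value was 2.01, 1.77, 1.32 and 2.03 in libraries 1 to 4. Pairs of other genes were not counted in this way, so these counts and medians have nothing to stand against. The members were also chosen with values of these same cells known, and the odds ratios are a description. Among the 6 genes found in the most cells the strongest links joined Lgals1, Anxa2 and Crip1, the 3 genes called lower in G1-table cells. Anxa2 was found in 17.3% of the thinned cells with Lgals1 against 5.999% of those without it (odds ratio 2.68). Crip1 was found in 71.8% of cells with Lgals1 against 46.2% of those without it (2.37), and in 77.2% of cells with Anxa2 against 53.5% of those without it (2.30). S100a10 and Anxa2, whose proteins form a complex, had an odds ratio of 1.57, with 439 cells holding both and 364 from the product of their shares. Vim and S100a11 had the weakest link of the 45, at 1.11.

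The 3 rare genes were linked far more tightly, on few cells. S100a4 and S100a6 were found together in 11 thinned cells, where the product of shares gives 0.144 cells. S100a6 was thus in 61.1% of the 18 thinned cells with S100a4, against 0.606% of those without it. S100a6 and Lgals3 met in 9 cells against 0.390 from the shares, S100a4 and Lgals3 in 6 against 0.131, and S100a11 and Lgals3 in 14 against 2.54. Their odds ratios were 261, 34.4, 82.5 and 7.69, and all 4 pairs were above 1 in each library that had cells to give a value. S100a6 and Anxa2 had an odds ratio of 1.67 that rests on library 2, since it was 0.919 without that library. A link between S100a6 and Lgals3 was already part of how the list was put together and is not independent evidence.

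**Figure D3:**
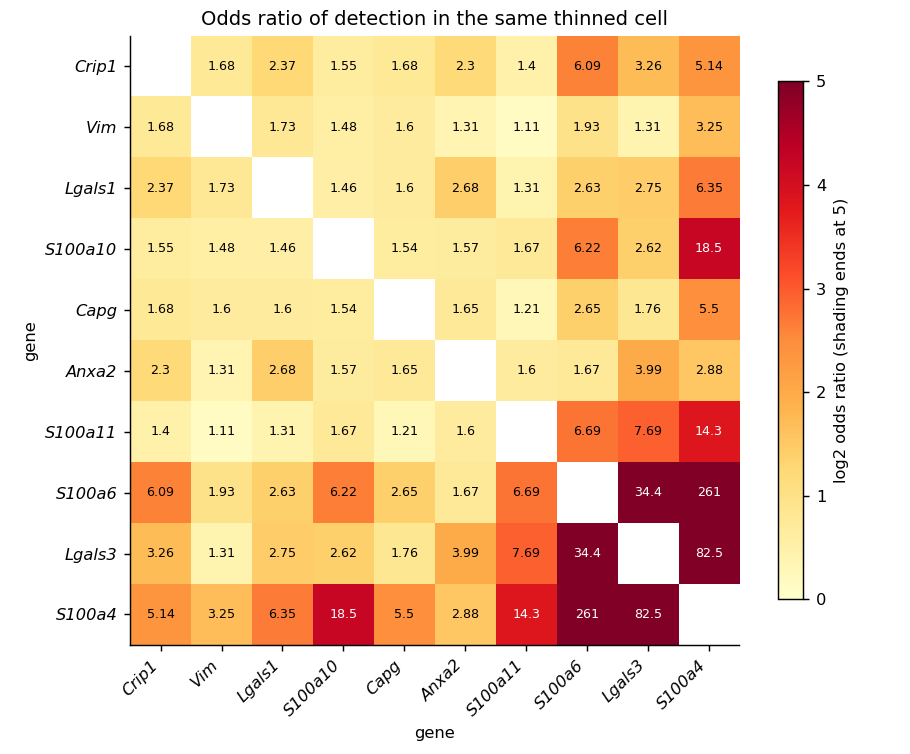
Odds ratio of finding both genes in the same thinned cell for each pair of genes, stratified by library; the number in each cell is the odds ratio and the shading its log2 value, ending at 5. The darkest cells join S100a4, S100a6 and Lgals3 (34.4 to 261), and the cells among Crip1, Lgals1 and Anxa2 hold 2.30 to 2.68.

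As a count per cell, 617 of the 7447 thinned cells (8.29%) held UMIs of 5 or more of the 10 genes, where the product of shares within each library gives 303 cells (4.07%). Other sets of genes were not counted in this way. The shares by library were 8.80%, 13.5%, 0.493% and 8.20% in libraries 1 to 4, against 3.64%, 7.54%, 0.1804% and 3.53% from the product. Cells with none of the 10 genes were also more common than the product gives, at 11.3% against 6.79%. In all 4 libraries both ends of the distribution were thus fuller, and cells with 2 of the genes fewer, than the product gives. No thinned cell held all 10 genes, and 3 held 9. Of Il2ra-detected cells 13.1% held 5 or more, against 6.03% of Il2ra-undetected cells, and of G1-table cells 7.36% did, against 16.04% of the other cells. Il2ra was detected on unthinned counts in 50.4% of cells with 5 or more and 30.1% of cells with fewer. On thinned counts it was detected in 24.1% and 17.9%. In library 3 no Il2ra-detected cell of 129 held 5 or more of the genes, which allows a share of up to 2.82% by its exact interval, and 8 of 1493 Il2ra-undetected cells did. Cells with 5 or more of the genes had been deeper before thinning (median 5216 against 3239 UMIs in cells with fewer), and the part of that in their number was not tested.

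**Figure D4:**
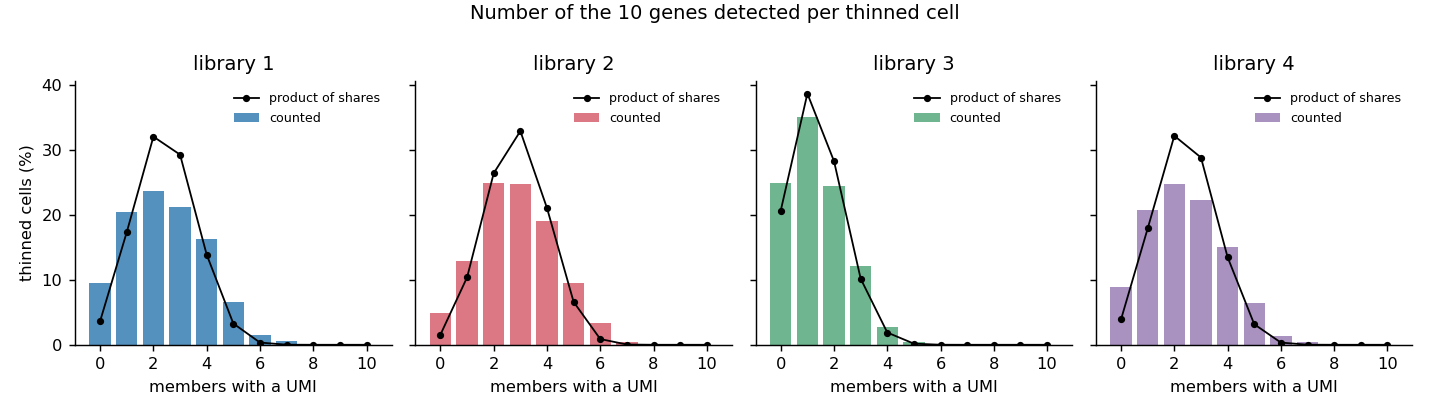
Percent of thinned cells that held a UMI of 0 to 10 of the 10 genes, in each library; bars are counted cells and black points the distribution given by multiplying the separate shares of detection. Bars exceed the points at 0 genes and at 5 or more, and library 3 has its mode at 1 gene.

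Splitting the cells by detection of 13 other genes of T cell state gave 22 calls among 130 ratios, 14 higher and 8 lower. Of all genes tested, between 0.31% (S1pr1) and 10.8% (Mki67) were called higher, depending on the split. Between 0.384% (Nr4a1) and 12.4% (Mki67) were called lower. The split with the most calls higher, 4, was by Nkg7, a granule protein of cytotoxic lymphocytes. S100a6 was at 25.4, 33.9, 19.98 and 19.4 CPM in the Nkg7-detected cells of libraries 1 to 4, against 6.42, 4.93, 2.26 and 5.31 CPM in the Nkg7-undetected cells. Every library had its Nkg7-detected cells above its undetected ones, 5.09-fold over all (log2 ratio 2.35, 2.02 to 2.68), and S100a6 was found in 2.62% of thinned Nkg7-detected cells against 0.413% of undetected ones. Lgals3 was at 17.1, 24.4, 4.996 and 7.98 CPM in Nkg7-detected cells against 2.34, 3.79, 0.188 and 5.004 CPM in undetected cells, 5.005-fold over all. Anxa2 (151 CPM in Nkg7-detected cells against 77.0 CPM in undetected cells) and S100a11 (52.7 against 31.3 CPM) were 1.705-fold and 1.63-fold higher. Of all genes tested 6.49% were called higher there, beside these 4 of 10, and 6.88% were lower, with none of the 10. Members and splits were chosen with earlier results of these cells known. The shares of all genes, here and in the splits below, are thus a description and not independent evidence. Nkg7-detected cells were deep (median 6008 against 2920.5 UMIs in undetected cells), and within strata of depth the calls of S100a6, Lgals3 and S100a11 held while the Anxa2 ratio fell to 0.30 on the log2 scale.

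S100a6 was called lower in cells with a UMI of Ccr7, of Ccr9 and of Ccr6, and Lgals3 in those with Ccr9 and with Ccr6. By Ccr7, the receptor that guides cells to lymphoid tissue and into the thymic medulla, S100a6 was at 6.01, 13.2, 2.59 and 4.62 CPM in the Ccr7-detected cells of libraries 1 to 4, against 57.7, 15.96, 7.42 and 23.2 CPM in the Ccr7-undetected cells. Its levels in the Ccr7-undetected cells were the more variable ones, and the log2 ratio was -1.82. S100a11 was lower in Ccr7-detected cells as well (33.3 against 54.0 CPM in undetected cells, log2 ratio -0.71), so 2 of the 10 genes were called lower, against 0.929% of genes, and none higher, against 0.62%. By Ccr9, a receptor of developing T cells for a thymic and gut chemokine, S100a6 (3.00 CPM in Ccr9-detected cells against 11.5 CPM in undetected cells) and Lgals3 (2.77 against 7.23 CPM) were called lower, against 1.8% of genes, and none higher, against 1.61%. By Ccr6, a receptor of effector and Th17-related cells, the same 2 genes were called lower (S100a6 at 4.77 CPM in Ccr6-detected cells against 11.1 CPM in undetected cells, Lgals3 at 3.26 against 7.11 CPM), against 8.88% of genes, and none higher, against 6.67%. Their thinned shares of cells went the other way (0.949% of Ccr6-detected cells against 0.737% of undetected cells for S100a6), so no order is read from them. By Foxp3 itself, S100a6 was called lower on 3 UMIs in 419 Foxp3-detected cells (1.57 CPM against 10.9 CPM in undetected cells, log2 ratio -2.88, -4.50 to -1.25), against 1.2% of genes, and none higher, against 0.335%.

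Capg and Lgals1 were called higher with one costimulatory receptor and Anxa2 and Lgals3 with another. By Tnfrsf4 (OX40), Capg was at 234, 276, 87.1 and 215 CPM in the Tnfrsf4-detected cells of libraries 1 to 4, against 100.2, 150.5, 54.6 and 122 CPM in undetected cells, 1.88-fold higher. Lgals1 was 1.60-fold higher in the Tnfrsf4-detected cells (596 CPM against 299 CPM in undetected cells) and Lgals3 3.14-fold lower (5.48 against 12.9 CPM), where 6.18% of genes were called higher and 4.96% lower. The Lgals1 ratio did not hold within strata of depth, where its log2 value was -0.017. By Tnfrsf9 (4-1BB), Anxa2 (121 CPM in Tnfrsf9-detected cells against 71.0 CPM in undetected cells) and Lgals3 (8.44 against 4.94 CPM) were called higher, 1.55-fold and 1.51-fold, against 9.14% of genes. The Tnfrsf9-detected cells were deeper (median 4112 against 2762 UMIs in undetected cells), and both calls ended within strata of depth, at log2 ratios of 0.26 for Anxa2 and 0.11 for Lgals3. By Il2rb, the beta chain of both the IL-2 and the IL-15 receptor, Capg was the 1 gene called (255 CPM in Il2rb-detected cells against 149 CPM in undetected cells, 1.51-fold), against 1.15% of genes. Here too the detected cells were deeper (median 4143 against 2665.5 UMIs), and the Capg call ended within strata of depth (log2 ratio 0.41). By Nr4a1, an immediate early gene of T cell receptor signalling, Lgals3 was 2.85-fold higher in detected cells (12.9 CPM against 4.41 CPM in undetected cells), against 1.95% of genes. Lgals3 was thus called higher by Nr4a1 and Tnfrsf9 and lower by Tnfrsf4.

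By Mki67, Anxa2 (199 CPM in Mki67-detected cells against 78.1 CPM in undetected cells, 2.16-fold), Lgals1 (1072 against 461 CPM, 1.962-fold) and Crip1 (1839 against 838 CPM, 1.91-fold) were called higher, against 10.8% of genes. Library 3 had 13 Mki67-detected cells, too few for a direction, so these calls rest on the other three libraries. The Mki67-detected cells were the deepest of any split (median 9450 against 3034 UMIs in undetected cells), and within strata of depth the call of Lgals1 ended (log2 ratio 0.54) while those of Anxa2 (0.64) and Crip1 (0.78) were made. By Cd8a, Anxa2 was at 116, 271, 258 and 347 CPM in the Cd8a-detected cells of libraries 1 to 4, against 91.9, 127, 15.3 and 89.5 CPM in the undetected cells, 2.61-fold higher, against 3.95% of genes, and none of the 10 was lower, against 2.75%. The Cd8a-detected cells were 235 in number and came through a sort for CD8- cells. By Socs2, a feedback inhibitor induced by IL-2, and by S1pr1, the receptor for thymic exit, none of the 10 genes was called, where 1.14% and 0.31% of genes were called higher and 2.47% and 2.14% lower.

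Several of these calls end when 1 library is left out. S100a6 fell under the minimum of 200 UMIs without library 2, and Lgals3 without library 1, 2 or 4, so all calls of S100a6 ended in the first case and all of Lgals3 in the others. The log2 ratio of S100a6 by Nkg7 was then 2.01, and that of Lgals3 by Nkg7 between 1.95 and 2.76. Anxa2 by Tnfrsf9 missed 1.5-fold without library 1 (0.54), Lgals3 by Tnfrsf9 without library 3 (0.58), Capg by Il2rb without library 4 (0.54) and S100a11 by Nkg7 without library 2 (0.55). S100a11 by Ccr7 missed it without library 1 (-0.49) and without cells that had a Mki67 or Top2a UMI (-0.56). The calls of Capg and Lgals1 by Tnfrsf4, of Anxa2 by Nkg7 and Cd8a, and of the 3 genes by Mki67 were made whichever library was left out, although those of Lgals1 by Tnfrsf4 and by Mki67 and of Anxa2 by Nkg7 ended within strata of depth.

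**Figure D5:**
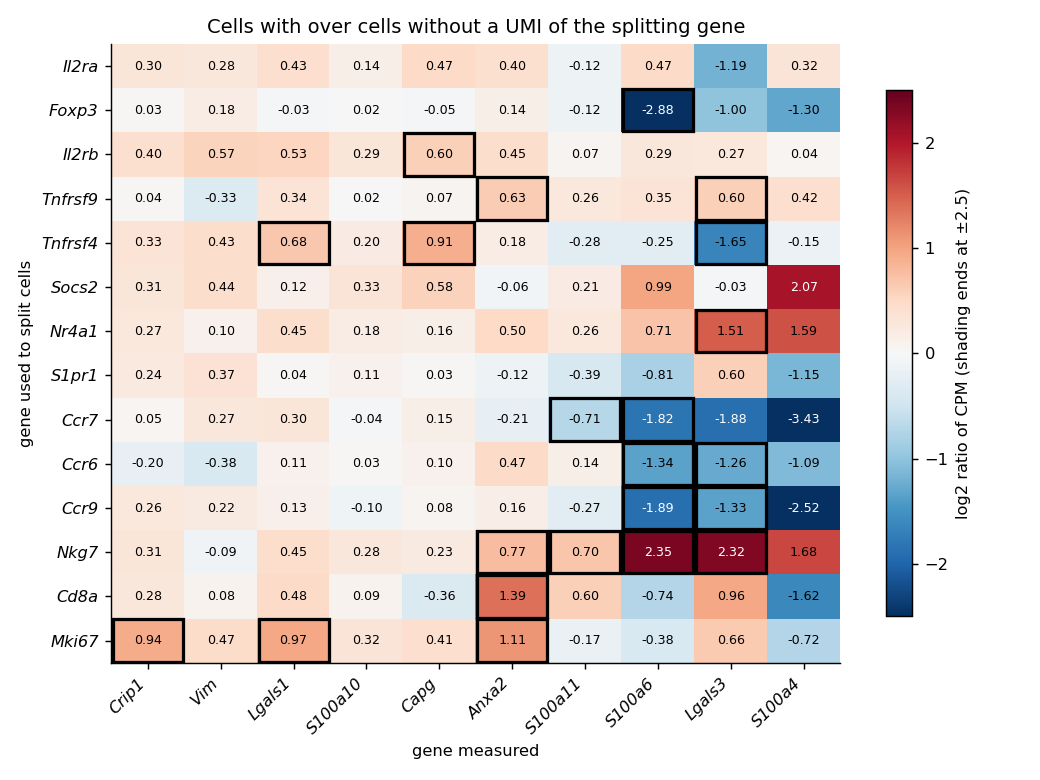
Log2 ratio of CPM of each of the 10 genes (columns) in cells with over cells without a UMI of each splitting gene (rows), stratified by library; boxes mark ratios that met the call rule and shading ends at 2.5 either way. S100a6 and Lgals3 are reddest in the Nkg7 row (2.35 and 2.32) and blue in the Ccr7, Ccr6 and Ccr9 rows, while S100a10 and Vim have no boxed value.

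Which transcripts rise and fall with the number of the 10 genes found in a cell was described by Pearson's r across the 7447 thinned cells, centred within each library. Cells of a library share its depth and handling, and r is given with no p. Of 5921 other genes, 65 had r above 0.1 and 15 below -0.1. The 10 most alike were H2afz (0.22), Hmgb2 (0.22), Tmsb4x (0.19), Stmn1 (0.19), Mbnl3 (0.19), Pclaf (0.18), Lockd (0.18), Birc5 (0.17), Top2a (0.17) and Ccnb2 (0.16). Among these, Hmgb2, Pclaf, Birc5, Top2a and Ccnb2 are known from DNA replication and cell division, and Tmsb4x encodes the actin monomer-binding thymosin beta 4. Hmgb2 was at 1245 CPM in thinned cells with 5 or more of the 10 genes, against 398 CPM in cells with fewer, and Tmsb4x at 16595 against 13606 CPM. The 5 least alike were Malat1 (-0.29), Btg1 (-0.20), Itm2a (-0.15), Rps15a (-0.15) and Satb1 (-0.14). Btg1 is an antiproliferative gene, and Satb1 organises chromatin in developing T cells. Il2ra had r of 0.056. Among G1-table cells alone the leading genes were Tmsb4x (0.21), Mbnl3 (0.19), Lsp1 (0.17), H2afz (0.16), Il2rb (0.16), Ccl5 (0.15), Glipr2 (0.14), Itgb7 (0.14), Actg1 (0.13) and Thy1 (0.13), and 3 of the first 10 were among them.

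Relatives of the 10 genes were described family by family. Of 10 other S100 genes 1 reached 200 UMIs, S100a13, at 200.5 CPM in Il2ra-detected cells against 178 CPM in Il2ra-undetected cells (log2 ratio 0.076), while the phagocyte genes S100a8 and S100a9 had 0 UMIs. Of 11 other annexins 4 were tested and none was called in either split (median log2 ratio -0.026 for Il2ra-detected over Il2ra-undetected cells and 0.11 for G1-table over other cells). Anxa5 had a log2 ratio of -0.0053 and Anxa6 one of -0.032 in the Il2ra split. Of 8 other galectins 3 were tested, and Lgals8 was called higher in G1-table cells (33.8 CPM against 21.5 CPM in the other cells). Among 21 tested actin-binding and LIM genes (of 24), Tagln2 was called higher in Il2ra-detected cells (139 CPM against 69.4 CPM in Il2ra-undetected cells) and Gsn, the actin-severing gelsolin, lower (23.3 against 42.7 CPM), with a median log2 ratio of -0.038. In the G1 split Gsn was called higher (38.0 CPM in G1-table cells against 19.1 CPM in the other cells) and Tagln2 (74.7 against 213 CPM) and Csrp1 (124 against 249 CPM) lower, with a median of -0.027. Of 4 tested lamina and filament genes, Lmnb2 was called higher in Il2ra-detected cells (16.7 CPM against 9.74 CPM in Il2ra-undetected cells), and Lmnb1 (59.9 CPM in G1-table cells against 353 CPM in the other cells) and Lmnb2 (10.96 against 20.7 CPM) lower in G1-table cells.

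Of 13 tested effector T cell genes (of 22), Ccr8 (10.8 CPM in Il2ra-detected cells against 4.92 CPM in Il2ra-undetected cells) and Nkg7 (213 against 89.0 CPM) were called higher in Il2ra-detected cells. Itga4 (32.9 against 69.3 CPM) and Id2 (20.3 against 36.6 CPM) were called lower there. The median log2 ratio of these 13 genes was 0.24 in the Il2ra split, and none was called in the G1 split, where it was -0.024.

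Markers of other cell types were counted in the 617 thinned cells with 5 or more of the 10 genes and in the 6830 with fewer, since Lgals3, Vim, Capg and several S100 genes are abundant in myeloid and stromal cells. The 10 myeloid markers summed to 3.58 CPM in cells with 5 or more (4 UMIs, 0 to 7.08 CPM by library) against 2.43 CPM in cells with fewer (1.17 to 4.79 CPM). Fcer1g gave 3 of these 4 UMIs (2.68 CPM in cells with 5 or more against 0.162 CPM in cells with fewer) and Cd68 gave 1 (0.895 against 1.05 CPM). Lyz2, C1qa, C1qb, Csf1r, Itgam, Adgre1, Tyrobp and Spi1 were at 0 in the cells with 5 or more. Of these, Csf1r and Spi1 were at 0 in the cells with fewer as well. The others had only 1 to 5 UMIs each in the 6830 cells with fewer, so their 0 in 617 cells does not tell the groups apart. Among dendritic and B cell markers, H2-Ab1 was at 0 in the cells with 5 or more, and Flt3, Siglech and Ms4a1 were at 0 in both groups. The dendritic and B cell markers summed to 35.8 CPM in cells with 5 or more (23.0 to 69.0 CPM by library) against 16.2 CPM in cells with fewer (12.7 to 19.0 CPM). Most of that sum was Cd79b (26.8 CPM in cells with 5 or more, 30 UMIs, against 10.5 CPM in cells with fewer), with H2-Aa at 6.26 against 1.62 CPM and Cd79a at 2.68 against 2.67 CPM, and their part in the counts was not tested. Stromal and epithelial markers summed to 125.3 against 120.2 CPM. Most of that sum was Pecam1 (103.8 CPM in cells with 5 or more against 105.2 CPM in cells with fewer). Epcam was higher in cells with 5 or more (21.5 against 13.8 CPM, on 24 and 171 UMIs). Col1a1 was at 0 in the cells with 5 or more and had 3 UMIs in those with fewer, and Col3a1, Dcn and Pdgfra were at 0 in both groups. NK, NKT and gamma delta markers summed to 17.0 CPM in cells with 5 or more against 15.2 CPM in cells with fewer, with Ncr1 and Zbtb16 at 0 in both groups. In that list Klrd1 (1.79 against 0.0808 CPM, on 2 and 1 UMIs), Klrb1c and Fcer1g were higher in cells with 5 or more. Xcl1 (9.84 against 11.2 CPM), Gzma (0.895 against 2.51 CPM) and Eomes were lower there. Double-positive thymocyte markers summed to 94.9 against 81.2 CPM. Erythroid markers were at 1.79 CPM in cells with 5 or more of the genes and at 151 CPM in cells with fewer, nearly all of it in library 3. Treg markers summed to 3826 CPM in cells with 5 or more against 3310 CPM in cells with fewer, and T cell markers to 2320 against 2377 CPM.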

How the data were processed

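Single-cell 3' libraries of sorted thymic Treg cells were deposited as 2 tables. The first holds the deposited UMI counts of 27998 genes in 8273 cells. The second, deposited for 7231 cells under the name G1 and for 9571 genes, is on a log2 scale: each value was the log2 of 1 plus the count over 1 factor per cell (0.168 to 5.68). The mm10 build, Cell Ranger 2.0.2, CASAVA 2.20 and R 3.4.1 are named per the submitters' processing notes, and the cell and gene filters are not given in the sources used here. Symbols came from GENCODE M21, for 27645 identifiers, and 353 had none.

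Here, UMIs were summed per library (5717732 to 11274713 UMIs, 795 to 32737 per cell). Ratios of CPM were Mantel-Haenszel ratios over libraries with 0.5 UMIs added for the log. Intervals were Poisson for levels and Clopper-Pearson for shares. Cells are not replicates, so no p-value was computed. Thinning drew 1811 UMIs, the 10th percentile, and left out 826 cells. The procedure was checked on simulated data. Doublets were not called. The genes named are the 10 members, Il2ra, Foxp3, the 10 most and 5 least alike genes, and list genes that met the call rule or had the most UMIs. Members, lists and splits were chosen with earlier results of these data known. Alternatives covered scaling, minimum UMIs, depth, weighting, cell filters and leaving out each library. The tools were pandas 2.3.3, scipy 1.17.1, numpy 2.4.6 and matplotlib 3.10.9 under Python 3.11.15.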

Additional observations from a re-analysis of the deposited data

How the results depend on the processing

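Of the alternative values of counts and medians, 114 stayed within 1.5 times the value reported, and 13 did not. In the Il2ra split the count of genes called higher was 1, in place of 0, on thinned cells, on the authors' normalized values and on means over cells of equal weight, each time Capg. Calls on the authors' normalized values and on means over cells of equal weight, here and below, used no interval. In the G1 split 0 genes were called lower without cells that had a Mki67 or Top2a UMI, and Lgals1 (0.13), Anxa2 (0.29) and Crip1 (0.11) then changed sign on the log2 scale. Leaving out 1 library gave 0 to 1 genes called higher and 3 to 4 called lower there, and 2 were called lower within strata of library and depth and with each cell counted alike. Between libraries 2 to 8 genes were called when 1 library was left out, with 2 without library 3. The median odds ratio was 4.33 without thinning, and that of S100a6 and Anxa2 was 0.919 to 2.09 when 1 library was left out, the lowest without library 2. Among the splits by state genes, calls higher numbered 8 within strata of library and depth, where the log2 ratio of Lgals1 by Tnfrsf4 was -0.017, and 11 to 14 when 1 library was left out. Calls lower numbered 5 without cells that had a Mki67 or Top2a UMI, in which the Mki67 split has no value, and 1 to 9 when 1 library was left out, with 5 without library 1 and 1 without library 2. Of the 10 most alike genes, 3 were still among the 10 in G1-table cells and 3 without cells that had a Mki67 or Top2a UMI, while 9 to 10 were when 1 library was left out. Alternative values of single genes were set against the reported interval, and those of pairs against 1.5 times the reported odds ratio either way. Of these, 751 stayed within (339 of them for pairs), 216 moved and 5 that were past 1.5-fold turned to the other side of no change. The alternatives of the state splits, of the alike genes and of the number of cells with 5 or more of the genes were chosen after the data had been seen. So were those without Mki67 or Top2a cells in the Il2ra split, co-detection and the library comparison, and in the library comparison those of Il2ra-undetected cells and without cells of other types. No paired analysis was possible because the columns carry no replicate number and no result comes from a test; ratios of the cell splits were already taken within libraries. S100a4, with 81 UMIs, and Lgals3, with 3 UMIs in library 3, are limited by depth.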
